A study of Mus musculus with 5 samples.

Results

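Genes that mark granulocytes and monocytes, and the regulators that switch them on, were examined in sorted hematopoietic stem cells (HSCs). The list held 10 of the 55335 genes in the table and was chosen by gene name: the alarmins S100a8 and S100a9, the granule genes Mpo, Elane, Prtn3, Ctsg and Lyz2, and the transcription factor genes Cebpa, Cebpb and Spi1. Bone marrow HSCs were sorted as Kit+ Sca-1+ cells without lineage markers (KSL) that were CD48- and CD150+, from mice aged 3 weeks. The labels give 3 libraries as wild-type and 2 as RankCre-ki, all given as strain C57BL/6J, with no agent named for either group. RankCre-ki mice carry Cre in 1 allele of the Rank gene together with a floxed and a null allele of Csf1r (RankCre-ki/wt;Csf1rfl/-), and the study kept the line with the null allele on another background, C3H/HeJ. The study describes this Cre as acting in embryonic macrophages, including osteoclasts, and not in other blood cells. The HSCs were thus not the cells that the Cre targets. They still carry the inherited null allele of Csf1r and the Cre in 1 Rank allele. The comparison asks how the transcripts of HSCs differ in these mice, which lack embryonic macrophages. Effects of the missing macrophages and of these alleles in the HSCs cannot be told apart here.

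Blood cells of the granulocyte and monocyte branch arise from HSCs through committed progenitors. On this path PU.1, the product of Spi1, and the C/EBP factors activate the genes of the granules. Neutrophil precursors pack myeloperoxidase and the serine proteases elastase, proteinase 3 and cathepsin G into primary granules, while the S100A8 and S100A9 proteins pair with each other and fill the cytosol of mature neutrophils and monocytes. Low levels of such transcripts in stem cells are often called priming.

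The level of a gene is given as TPM, its share of the length-corrected transcripts of a library, scaled to the same sum in every library. TPM of different genes can therefore be compared, but they hold no record of depth, and no counting error can be attached to them. The library names fall into 2 series: name series 1 is made up of the first wild-type and the second RankCre-ki replicate, and name series 2 of the other 3 libraries. The study names 2 tagmentation kits used on sets of this same size. The wild-type libraries had 9021 to 11084 genes at 1 TPM or more, while RankCre-ki replicates 1 and 2 had 12801 and 16386. RankCre-ki replicate 2 is labelled female but held 62.5 TPM of the Y-linked gene Eif2s3y and 0.0229 TPM of Xist, close to the 41.6 and 0.0273 TPM of wild-type replicate 1, which is labelled male, so this library went against its sex label, and values without it are given below. Csf1r, the floxed gene, measured 2.39, 0 and 0.234 TPM across wild-type libraries, against 17.5 and 6.46 TPM across RankCre-ki libraries. The Cre is not described to act in HSCs, but by the breeding scheme the null allele of Csf1r is inherited and carried by them. Why Csf1r was higher despite that allele was not tested.

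Of the 10 genes, 3 were above 1 TPM in every library, 4 in some libraries and 3 were listed at 0 everywhere. The first were Prtn3, Lyz2 and Spi1, at 43.6 TPM or more. Elane, Ctsg and Cebpa were listed at 0 TPM in all 5 libraries. S100a8, S100a9, Mpo and Cebpb reached 1 TPM in 2, 1, 2 and 4 libraries. The 10 genes together held 500 to 736 TPM in each wild-type library, against 730.0 and 635 TPM under RankCre-ki, and Prtn3 with Lyz2 made up 77.2% to 91.5% of that sum in each library.

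**Figure D1:**
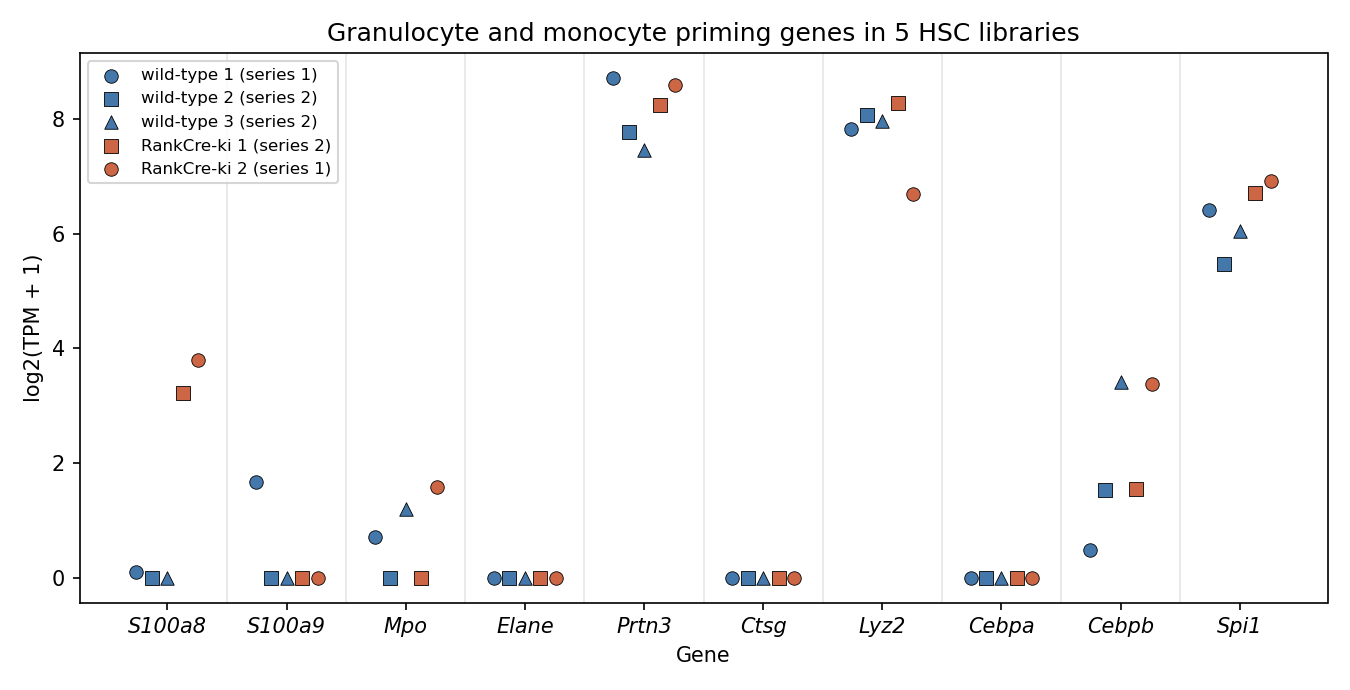
Level of each of the 10 genes, as log2(TPM + 1), in the 3 wild-type libraries (blue) and the 2 RankCre-ki libraries (orange), with 1 point per library and its name series in the legend. Prtn3, Lyz2 and Spi1 lie high in all 5 libraries, Elane, Ctsg and Cebpa lie at 0 in all 5, and S100a8 is the only one of the low genes with both RankCre-ki points above the wild-type points.

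Prtn3 and Elane, and likewise S100a8 and S100a9, are neighbours in the genome. Prtn3 (ENSMUSG00000057729, chromosome 10, 79874476 to 79883174, GRCm38) and Elane (ENSMUSG00000020125, chromosome 10, 79886247 to 79888215) are protein-coding genes of 5 exons each on the plus strand, 3072 bases apart with no annotated gene between them. S100a8 (ENSMUSG00000056054, chromosome 3, 90668978 to 90670035, plus strand) and S100a9 (ENSMUSG00000056071, chromosome 3, 90692632 to 90695721, minus strand) also lie side by side, 22596 bases apart. The promoters of both pairs, from 250 bases before to 50 bases after the RefSeq transcription start (GRCm38.p6), are shown because the members of each pair differed in level. Capitals mark the letters GAGGAA, the core bound by PU.1, and TTNNGNAA, a loose form of the C/EBP site, each searched on both strands. No marked stretches overlapped.
Prtn3, chr10:79879417-79879716, plus strand: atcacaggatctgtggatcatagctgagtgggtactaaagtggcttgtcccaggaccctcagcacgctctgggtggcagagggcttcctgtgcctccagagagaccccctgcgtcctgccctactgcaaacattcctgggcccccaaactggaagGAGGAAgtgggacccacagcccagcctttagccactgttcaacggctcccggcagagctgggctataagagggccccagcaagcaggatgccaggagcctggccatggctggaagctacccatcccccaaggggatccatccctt
Elane, chr10:79886062-79886361, plus strand: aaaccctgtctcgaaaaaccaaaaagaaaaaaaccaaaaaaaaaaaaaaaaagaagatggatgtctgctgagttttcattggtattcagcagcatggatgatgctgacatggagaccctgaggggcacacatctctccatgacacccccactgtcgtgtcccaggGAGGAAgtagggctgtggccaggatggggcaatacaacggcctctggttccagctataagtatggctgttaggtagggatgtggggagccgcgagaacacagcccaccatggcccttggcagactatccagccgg
S100a8, chr3:90668821-90669120, plus strand: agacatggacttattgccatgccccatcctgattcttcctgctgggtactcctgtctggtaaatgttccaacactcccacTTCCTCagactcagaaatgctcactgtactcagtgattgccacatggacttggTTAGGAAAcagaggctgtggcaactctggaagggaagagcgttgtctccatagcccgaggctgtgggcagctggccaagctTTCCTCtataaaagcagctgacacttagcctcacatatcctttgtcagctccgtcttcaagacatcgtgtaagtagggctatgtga
S100a9, chr3:90695672-90695971, minus strand: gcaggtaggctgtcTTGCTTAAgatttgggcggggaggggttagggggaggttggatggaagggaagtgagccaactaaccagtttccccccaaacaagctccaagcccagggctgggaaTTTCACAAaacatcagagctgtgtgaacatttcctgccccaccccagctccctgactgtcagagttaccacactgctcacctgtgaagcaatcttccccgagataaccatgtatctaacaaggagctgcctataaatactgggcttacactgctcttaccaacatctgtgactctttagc

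The Prtn3 and Elane promoters each held 1 match to GAGGAA, with its first base at -95 and -85, and no match to the C/EBP letters. The S100a8 promoter held 2 matches to the PU.1 letters on the opposite strand, at -170 and -36, and 1 to the C/EBP letters, at -117. The S100a9 promoter held 2 matches to the C/EBP letters, at -236 and -130, and none to the PU.1 letters. RefSeq promoters were found for 9 of the 10 genes, all but Spi1. The PU.1 letters were present in 5 of these 9 and in 28.3% of all 32851 promoters of this length, and the C/EBP letters in 3 of 9 and in 40.7% of all. Such matches describe the sequence and do not show that a factor was bound.

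Among the granule proteases, Prtn3, which encodes proteinase 3, had the highest mean of the list. Wild-type replicates 1, 2 and 3 held 421, 219 and 175 TPM of Prtn3, while RankCre-ki replicates 1 and 2 held 305 and 388 TPM. The highest value belonged to a wild-type library, so the groups overlapped, and the 2 libraries of name series 1 were the highest of the 5. Prtn3 ranked between 298 and 870 among the genes of a library, counted from the highest. The means were 272 ± 131 TPM (SD, n = 3) and 346 ± 58.7 TPM (SD, n = 2). The log2 fold change, RankCre-ki minus wild-type on the log2(TPM + 1) scale, was 0.44 ± 0.49 (SE) (limma p of 0.396, adjusted p of 0.958). It was -0.12 within series 1 and 0.64 within series 2, and -0.07 after median-ratio scaling. The GENCODE span of Prtn3, which reaches upstream of the RefSeq start, shares 159 bases with Plppr3 on the other strand, a gene at 1.72 to 15.3 TPM in these libraries.

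The other primary granule genes did not share this level. Elane, which encodes neutrophil elastase, and Ctsg (ENSMUSG00000040314, chromosome 14, 56099881 to 56102574), which encodes cathepsin G, were listed at 0 TPM in all 3 wild-type and both RankCre-ki libraries. The longest coding transcripts of Prtn3, Elane and Ctsg have like lengths, 1025, 984 and 1002 nt, and GC contents of 60.7%, 57.4% and 51.5%. Over the aligned bases the Prtn3 transcript was 65.8% identical to that of Elane and 62.2% identical to that of Ctsg. Mpo (ENSMUSG00000009350, chromosome 11, 87793581 to 87804413), the gene of myeloperoxidase, measured 0.625, 0 and 1.30 TPM across wild-type libraries, against 0 and 1.99 TPM across RankCre-ki libraries. Each group held a library at 0, and the log2 fold change of 0.16 ± 0.71 (SE) gave a limma p of 0.832 (adjusted p of 0.992). The direction of Mpo changed between the series, from 0.88 in series 1 to -0.60 in series 2, and it was also negative after quantile normalization (-0.65).

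Lyz2 (ENSMUSG00000069516, chromosome 10, 117277331 to 117282321), the lysozyme gene of the myeloid lineage, had the least relative spread among wild-type libraries of the 3 genes above 1 TPM throughout. Its highest wild-type value was 1.18 times its lowest, against 1.93 for Spi1 and 2.41 for Prtn3. It measured 228, 268 and 250 TPM across wild-type libraries, against 311 and 103 TPM across RankCre-ki libraries. The RankCre-ki libraries were thus the highest and the lowest of the 5. The means were 249 ± 20.5 TPM (SD, n = 3) and 207 ± 147 TPM (SD, n = 2). The log2 fold change was -0.47 ± 0.54 (SE) (limma p of 0.412, adjusted p of 0.963). Without RankCre-ki replicate 2 the fold change turned to 0.32 (adjusted p of 0.949), and without RankCre-ki replicate 1 it was -1.26 (limma p of 0.0272, adjusted p of 0.526), in a fit in which 0.901% of all genes were lower and 5.98% higher at a limma p under 0.05. The transcript of Lyz1, the close copy of this gene, was 96.0% identical over the aligned bases, and Lyz1 was listed at 0 in 4 libraries and at 0.0175 TPM in wild-type replicate 1.

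The balance of the 2 abundant granule genes followed the name series. Prtn3 was 1.85 times Lyz2 in wild-type replicate 1 and 3.77 times Lyz2 in RankCre-ki replicate 2, which are the libraries of series 1. In the libraries of series 2 the ratio was 0.816 and 0.701 for wild-type replicates 2 and 3 and 0.980 for RankCre-ki replicate 1. Prtn3 and Lyz2 thus changed places between libraries of the same genotype. The series coincided with the presence of Y-linked transcripts and may coincide with the kit, so these cannot be told apart here.

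The alarmin gene S100a8 showed the widest difference between the groups among the 6 genes that could be tested. The wild-type libraries held 0.0677, 0 and 0 TPM of it, while RankCre-ki replicates 1 and 2 held 8.31 and 12.9 TPM. Both RankCre-ki libraries lay above every wild-type library. It ranked 8065 of the 12801 genes at 1 TPM or more in RankCre-ki replicate 1 and 6682 of 16386 in replicate 2. The log2 fold change was 3.48 ± 0.91 (SE) (limma p of 0.00512, adjusted p of 0.521). In this test S100a8 thus did not pass the threshold used in the study (adjusted p no higher than 0.1, absolute log2 fold change above 2). The study applied that threshold to another test, on counts, and reported genes past it in both directions. S100a8 passed the filter on low values (1 TPM in 2 libraries) only through the RankCre-ki libraries, so it had to differ to be tested. With no filter its limma p was 0.0210 (adjusted p of 0.618). The median of all 13981 tested genes was 0.52, and S100a8 lay 2.96 above it. With 3 wild-type values at or near 0, its size rests on the pseudocount, and it was 6.46 with a pseudocount of 0.1. The difference was 3.70 in series 1 and 3.22 in series 2, and 3.19 without RankCre-ki replicate 2 (adjusted p of 0.128). Without RankCre-ki replicate 1 it was 3.76 with an adjusted p of 0.0455 and passed the threshold, as did 2.17% of all genes in that fit, in which RankCre-ki replicate 2 alone stood for its group and was assumed to vary like the wild-type libraries. With the replicate number as a block the limma p was 0.0674.

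S100a9, the partner of S100a8, did not share this pattern. It reached 2.17 TPM in the first wild-type replicate and was listed at 0 in the other 4 libraries, both RankCre-ki libraries included. S100a9 was above 1 TPM in 1 library only and was therefore not tested. The transcripts of S100a8 and S100a9 have 486 and 519 nt and GC contents of 44.9% and 45.1%, and were 59.4% identical over the aligned bases. No library held both genes above 1 TPM.

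Other measures also differed between the RankCre-ki libraries, in which S100a8 was above 1 TPM, and the wild-type libraries. Genes of secondary and tertiary neutrophil granules summed to 1.35 to 8.998 TPM in the wild-type and to 15.7 and 30.6 TPM in the RankCre-ki libraries, and 7 of these 15 genes, Lcn2, Mmp9, Cd177, Itgb2l, Ltb4r1, Wfdc21 and Retnlg, were listed at 0 in all libraries. Markers of T and NK cells summed to 0.885 to 3.24 TPM against 5.60 and 24.7 TPM, with Ncr1, Gzma and Trbc2 at 0 in all libraries. Klrb1c made up most of this sum in both RankCre-ki libraries, and Cd3d overlapped between the groups. Not all lists separated the groups. The sums of primary granule and progenitor, monocyte and macrophage, other S100, HSC, megakaryocyte, B cell, and stromal and endothelial genes overlapped. Those of the regulators, receptors, erythroid genes, and eosinophil, basophil and mast cell genes were higher in both RankCre-ki libraries. Both RankCre-ki libraries also detected more genes than any wild-type library, as given above. Mitochondrially encoded genes made up 14.7%, 21.0% and 16.7% of the wild-type libraries and 10.7% and 8.21% of the RankCre-ki ones, and the 10 highest genes took 18.1% to 27.4% against 12.6% and 12.2%. The part of these measures in the S100a8 difference was not tested. In bulk libraries of 80 to 90 sorted cells, more or fewer cells of another type and more or less RNA per cell cannot be told apart.

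The transcription factor genes ran from 0 for Cebpa to a mean of 83.5 TPM for Spi1, below Prtn3 and Lyz2. Spi1 (ENSMUSG00000002111, chromosome 2, 91082390 to 91115756), which encodes PU.1, measured 84.0, 43.6 and 65.0 TPM across wild-type libraries, against 104 and 121 TPM across RankCre-ki libraries. No wild-type library reached either RankCre-ki value, and the means were 112.5 ± 11.6 TPM (SD, n = 2) and 64.2 ± 20.2 TPM (SD, n = 3). The log2 fold change was 0.85 ± 0.54 (SE) (limma p of 0.154, adjusted p of 0.887). Relative to the median of the tested genes it was 0.33. It was 0.52 in series 1 and 0.96 in series 2, against medians of 0.53 and 0.40 over all genes, and was 0.34 after median-ratio scaling.

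Cebpa (ENSMUSG00000034957, chromosome 7, 35119293 to 35121928), whose product C/EBP alpha is needed to form granulocyte and monocyte progenitors, was listed at 0 in all 5 libraries. Cebpb (ENSMUSG00000056501, chromosome 2, 167688915 to 167690418), which drives granulocyte production under stress, measured 0.388, 1.88 and 9.65 TPM across wild-type libraries, against 1.92 and 9.36 TPM across RankCre-ki libraries. The groups overlapped over most of their range, with a log2 fold change of 0.66 ± 1.41 (SE) (limma p of 0.654, adjusted p of 0.990). It was 2.90 in series 1 and -0.92 in series 2, and -0.37 after quantile normalization. Both are genes of 1 exon and rich in G and C, at 62.6% and 67.2% of the transcript. The span of Cebpb shares 908 bases with Tmem189 on the other strand, a gene at 3.03 to 21.7 TPM, and whether the counting used strand is not given in the sources used here, so the values of Cebpb are uncertain.

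Ordered by mean TPM over the 5 libraries, the genes ran Prtn3 (301), Lyz2 (232), Spi1 (83.5), Cebpb (4.64), S100a8 (4.25), Mpo (0.782) and S100a9 (0.434), followed by the 3 genes at 0. The place of S100a8 differed between the groups, since its mean of 0.0226 TPM in the wild-type libraries was below those of Mpo (0.641) and S100a9 (0.723), and its mean of 10.6 TPM in the RankCre-ki libraries was above that of Cebpb (5.64). Prtn3 and Lyz2 overlapped in level. Lyz2 lay above Spi1 in 4 libraries and below it in RankCre-ki replicate 2, at 103 against 121 TPM. Spi1 lay above Cebpb in every library. Cebpb, S100a8, Mpo and S100a9 overlapped with their neighbours in this order.

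Across the list, 6 of the 10 genes passed the filter of at least 1 TPM in at least 2 libraries and were tested together with all other genes. S100a9, Elane, Ctsg and Cebpa did not pass. None of the 6 passed the threshold, against 0% of the 13981 genes tested, and the replicate numbers and the name series as blocks left this count at 0. This holds for the test on TPM used here, while the study's own test on counts did call genes at that threshold. At a limma p under 0.05 there was 1 gene, S100a8, among the 6 and it was higher in the RankCre-ki libraries, where 6.34% of all tested genes were, while 0 of 6 were lower, against 0.529% of all (6.87% in either direction). Since S100a8 entered the tested set only through the group in which it was high, this count is a description. The lower RankCre-ki value exceeded the highest wild-type value for 2 of the 6, S100a8 and Spi1, against 18.8% of all genes, and the reverse held for 0 of 6, against 3.71%. The fold change was above 0 for 5 of the 6 and for 72.3% of all genes. Its median was 0.55 for the 6 genes and 0.52 for all. Without RankCre-ki replicate 2, the library that went against its sex label, the fold change was 0.27 for Prtn3 and 0.74 for Spi1, and it turned to -0.63 for Mpo and -0.26 for Cebpb, with adjusted p from 0.949 to 0.979 for these 4 genes. Apart from S100a8, the difference of each tested gene was within 2 SE of 0.

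**Figure D2:**
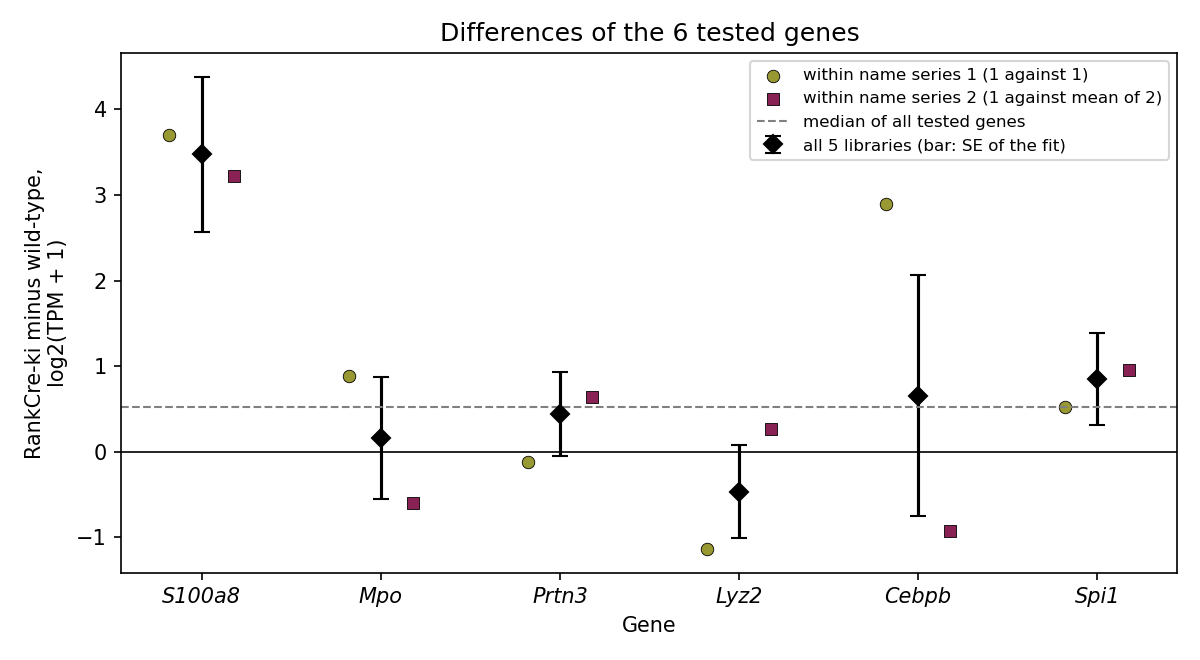
RankCre-ki minus wild-type difference on the log2(TPM + 1) scale for the 6 tested genes, from all 5 libraries (diamonds, with the SE of the limma fit), within name series 1 (circles) and within name series 2 (squares). S100a8 lies at 3.48, 3.70 and 3.22, while Mpo, Prtn3, Lyz2 and Cebpb have opposite signs in the 2 series, and the dashed line marks the median of all tested genes at 0.52.

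Profiles across the 5 libraries were compared by the mean absolute difference of log2(TPM + 1) after the mean of each gene was subtracted. Within the list, Prtn3 and Spi1 were the closest pair at 0.37, and S100a8 and Lyz2 the farthest at 1.89. Among all tested genes, the profiles nearest to Prtn3 were those of Dusp6 (0.08), Rock1 (0.09) and Nsrp1 (0.10). The nearest to S100a8 were Osbpl7 (0.05), Fbf1 (0.06) and Gm11712 (0.06). No wild-type library had Fbf1 above 0, and RankCre-ki replicates 1 and 2 had 8.85 and 14.1 TPM. With 5 libraries and 13981 genes such near matches are easily found, and they are given as a description.

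Other genes of the primary granule and of granulocyte and monocyte progenitors were compared as a list of 14, of which 10 were tested. A limma p under 0.05 was reached by 1 gene, Clec12a, which was higher, and by 0 lower genes, where 6.34% of all genes were higher and 0.529% lower. Clec12a, a lectin receptor of myeloid cells, measured 0.0126, 0 and 0.0315 TPM across wild-type libraries, against 2.88 and 6.90 TPM across RankCre-ki libraries. It too passed the filter only through the RankCre-ki libraries. Its log2 fold change was 2.45 ± 0.73 (SE) (limma p of 0.00979, adjusted p of 0.521). The highest genes of the list were Srgn, which encodes the granule proteoglycan serglycin, at 752 to 1215 TPM in the wild-type and 1883 and 1160 TPM in the RankCre-ki libraries, and Cd63, a tetraspanin of granule and lysosome membranes, at 518 to 793 against 608 and 451 TPM. Srgn and Cd63 are used by many blood cells. The median fold change of the list was 0.84, against 0.52 over all genes.

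Later granule genes were at low levels or listed at 0. Of the 15 genes of secondary and tertiary granules 3 were tested, 0 had a limma p under 0.05, and 8 were under 1 TPM in every library. The highest by mean were Ncf1, a subunit of the phagocyte oxidase, at 0, 0.920 and 8.89 TPM against 3.32 and 5.91 TPM, and Cxcr2, a chemokine receptor of neutrophils, at 3.22, 0.432 and 0.0762 TPM against 3.70 and 2.24 TPM. A further 6 genes above 0 are named after their values were seen. In RankCre-ki replicates 1 and 2, Ltf was at 3.07 and 0 TPM, Chil3 at 5.61 and 0, Camp at 0 and 7.16, and Cybb at 0.00717 and 9.48, with no wild-type library above 0. Ngp was at 3.70, 0 and 0.0367 TPM in wild-type and at 0 and 5.77 TPM in RankCre-ki HSCs, and Mmp8 reached 0.0307 TPM at most. The list had a median fold change of 1.03 over its 3 tested genes, against 0.52 over all genes.

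Of the 15 monocyte and macrophage genes 7 were tested, and 1, Csf1r, had a limma p under 0.05 (0.0451, adjusted p of 0.706) with a log2 fold change of 2.87 ± 1.21 (SE). Ms4a6c, a membrane protein gene of monocytes, measured 90.5, 81.9 and 69.6 TPM across wild-type libraries, against 38.8 and 44.3 TPM across RankCre-ki libraries. Both RankCre-ki values lay below all wild-type values, and the log2 fold change was -0.93 ± 0.53 (SE, adjusted p of 0.881). Cd68, a lysosomal protein gene of macrophages, measured 0.362, 32.5 and 38.1 TPM in wild-type and 12.8 and 46.4 TPM in RankCre-ki HSCs. The macrophage genes Adgre1, Mpeg1 and Fcgr3 were listed at 0 in all 5 libraries. The median of the list was 0.04, against 0.52 over all genes, of which 6.34% were higher at a limma p under 0.05.

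**Figure D3:**
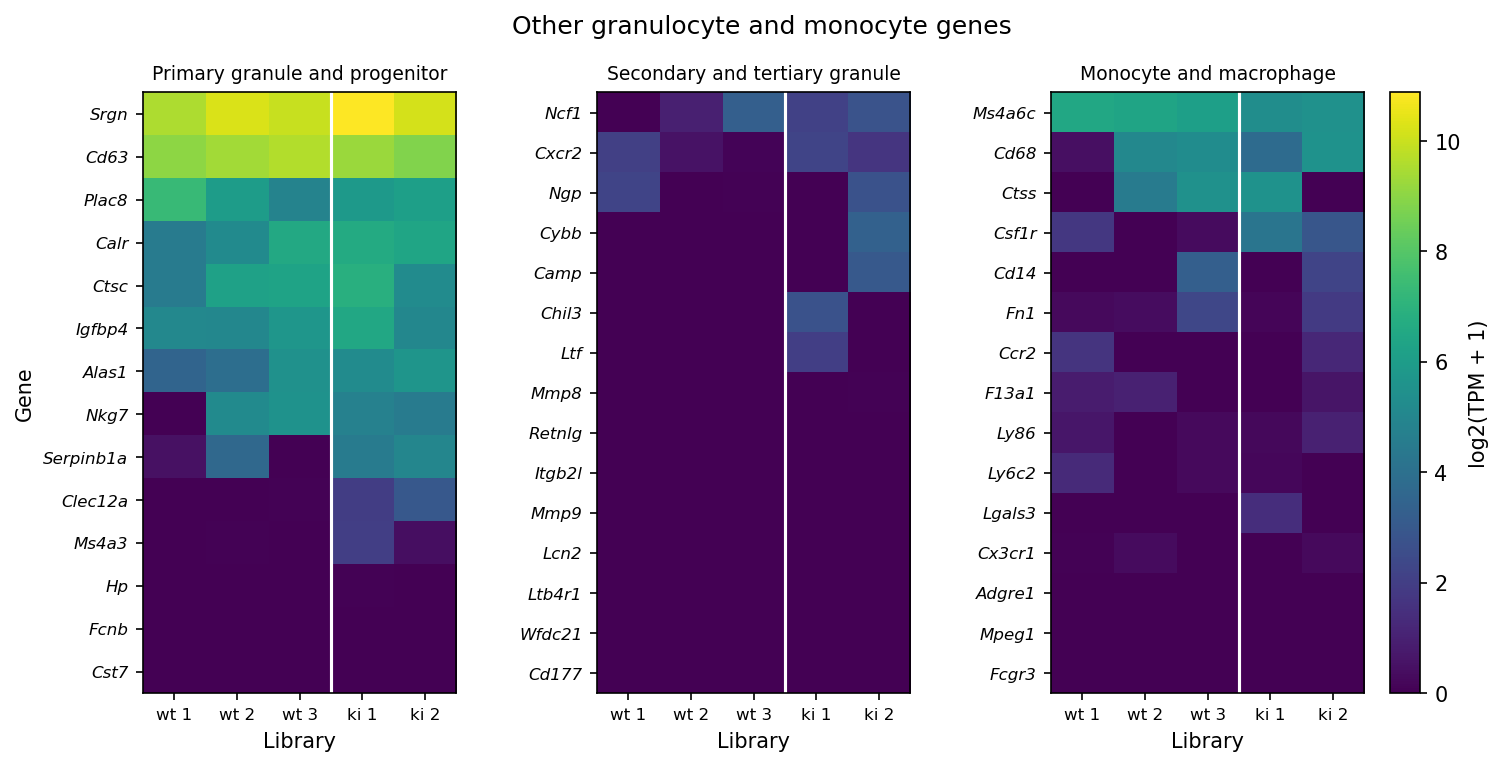
Levels of the genes of 3 lists, as log2(TPM + 1) by colour, in wild-type libraries 1 to 3 (wt) and RankCre-ki libraries 1 and 2 (ki), with genes ordered by their mean within each panel. Srgn and Cd63 are bright in all 5 libraries, and 7 of the 15 secondary and tertiary granule genes are at 0 in all of them.

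Among 18 further regulators of the myeloid lineage 13 were tested and 2, Gfi1b and Jun, had a limma p under 0.05, both higher, and 0 were lower (6.34% and 0.529% of all genes). Jun, an AP-1 factor gene, measured 8.16, 18.2 and 16.4 TPM across wild-type libraries, against 67.7 and 157 TPM across RankCre-ki libraries, and the log2 fold change was 2.84 ± 0.75 (SE, adjusted p of 0.521). Gfi1b, a repressor gene of the erythroid and megakaryocyte branch, measured 4.44, 26.8 and 24.7 TPM in wild-type and 57.4 and 234 TPM in RankCre-ki HSCs, with an adjusted p of 0.545. Egr1, which promotes monocyte fate, was the highest of the list in mean level, at 124 to 186 TPM against 299.7 and 208 TPM. The other C/EBP genes were named after their values were seen: Cebpe was listed at 0 in all libraries, Cebpd reached 0.0138 TPM at most, and Cebpg measured 0.485, 15.5 and 19.9 TPM in wild-type and 6.16 and 3.73 TPM in RankCre-ki HSCs. The median of the list was 0.68, against 0.52 over all genes.

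Of 10 receptor genes for myeloid growth factors 9 were tested. At a limma p under 0.05, 1 was higher and 0 were lower, where 6.34% of all genes were higher and 0.529% lower. Kit measured 20.4, 107 and 102 TPM in wild-type and 145 and 81.4 TPM in RankCre-ki HSCs. The list had a median of 0.83, against 0.52 over all genes. Of 9 other S100 genes 7 were tested and 0 had a limma p under 0.05, with a median of -0.21, against 0.52 over all genes. S100a10, a partner of annexin A2, was at 166 to 325 TPM in the wild-type and 365 and 375 TPM in the RankCre-ki libraries, and S100a1 was at 241 to 299.97 TPM against 188 and 155 TPM. Both were far above S100a8 and S100a9 in every library.

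Markers of the sorted cell and of other cells were summed per library. The 15 HSC genes were all tested and reached 847 to 1592 TPM in the wild-type and 2199.9 and 1366 TPM in the RankCre-ki libraries. At a limma p under 0.05, 4 of the 15 were higher, among them Esam, Gata2 and Procr, and 0 were lower. Of all tested genes 6.34% were higher and 0.529% lower. The median of the list was 0.52. Erythroid genes summed to 1119 to 1901 TPM against 2078 and 2925 TPM, with Slc4a1 at 0 in all libraries. Of the 10 tested, 1 gene, Hbb-bt, was higher at a limma p under 0.05, where 6.34% of all genes were. Megakaryocyte genes summed to 83.0 to 226 TPM against 183 and 177 TPM, and B cell genes to 38.1 to 158 TPM against 69.6 and 31.6 TPM, with Cd79a and Igll1 at 0 in all libraries. Eosinophil, basophil and mast cell genes summed to 16.4 to 36.4 TPM against 111 and 106 TPM, with Prg2, Epx and Prss34 at 0. Nearly all of this was Gata2, which HSCs also express, except in wild-type replicate 2, where Mcpt8 was at 12.3 TPM. Stromal and endothelial genes summed to 18.4 to 38.2 TPM against 34.1 and 35.4 TPM, most of it Pecam1. Apart from Gata2 and, among the T and NK genes, Klrb1c, which passed the filter only through the RankCre-ki libraries, 0 tested genes of the 5 lists outside the HSC and erythroid ones had a limma p under 0.05.

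**Figure D4:**
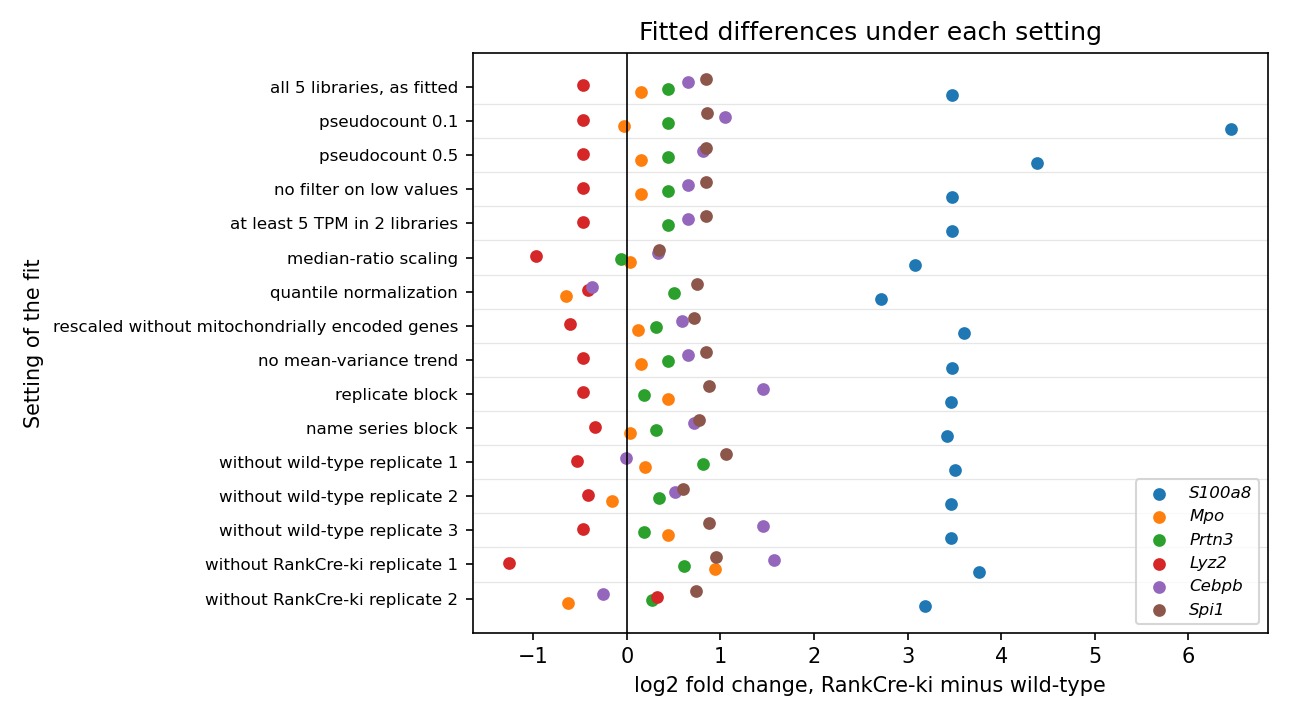
Fitted log2 fold change of the 6 tested genes (colours) under each setting of the analysis, with 1 line per setting. S100a8 stays between 2.72 and 6.46 in these fits, and Spi1 between 0.34 and 1.06, while Mpo, Prtn3, Lyz2 and Cebpb lie on both sides of 0.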

How the data were processed

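Bulk RNA sequencing libraries were prepared from 80 to 90 sorted HSCs by a full-length protocol with template switching and PCR. The authors deposited TPM per gene in 1 table of 55427 rows. For their own counts they aligned reads with gsnap to mm10 and used featureCounts 2.0.1 (bcl2fastq 2.20.0 for demultiplexing, per the labels), while the program behind the TPM is not given in the sources used here. Values between 0 and 1e-06 TPM occurred (179), which whole reads cannot give, so similar or overlapping genes may share signal. TPM keep no depth, so the libraries' spread is the sole measure of precision, and whether each library came from its own animal is not stated. Of 85 rows named as ribosomal protein genes, 3 to 4 were at 0 in each library, so a 0 is given as listed.

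The 92 spike-in rows, all at 0, were removed. Groups came from the treatment label. A gene was tested if 2 or more libraries reached 1 TPM (13981 of 55335), and tests ran on log2(TPM + 1), a scale that understates changes of low genes, with limma 3.58.1 in R 4.3.3 (lmFit, eBayes with trend, two-sided, 3 against 2 libraries, no covariate) and Benjamini-Hochberg adjustment over all tested genes. The code was tested on simulated data. Positions are from GENCODE M21 (GRCm38, the same build as mm10), which held 99.7% of the gene identifiers.

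The 10 genes and the lists (primary granule and progenitor, secondary and tertiary granule, monocyte and macrophage, regulators, receptors, S100, HSC, erythroid, megakaryocyte, B, T and NK, eosinophil with basophil and mast, stromal and endothelial) were chosen with earlier results of these data known. Named from each of the first 6 lists were the 2 genes with the highest mean and those with a limma p under 0.05, and from the others the markers at 0 in all libraries. Alternatives covered pseudocount, filter, scaling, trend, blocks, thresholds and each left-out library. No comparison across counts was fitted, because TPM are not counts. Some genes of these lists are not reported here.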

Additional observations from a re-analysis of the deposited data

How the results depend on the processing

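The count of genes past the threshold, 0 with all libraries, was 1 with the replicate block and ran from 0 to 304 over the fits that each left out 1 library, the 304 arising without RankCre-ki replicate 1. The count at a limma p under 0.05, 960, was 511 with 5 TPM required in 2 libraries, 616 after quantile normalization, 473 with the replicate block, and 633 to 1401 when 1 library was left out. The number of the 10 genes past the threshold, 0, ran from 0 to 1 when 1 library was left out, the 1 being S100a8 without RankCre-ki replicate 1. The number at a limma p under 0.05, 1, was 0 with the replicate block and 1 to 2 when 1 library was left out, the second gene being Lyz2. Whether libraries with the same replicate number formed a pair is not known. The deviations of libraries numbered 1 and 2 correlated across genes at -0.380 and -0.195. Libraries with the same number lie in different name series, so these correlations cannot decide it. The block used the 4 libraries with a shared number.

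S100a8 kept its direction in 17 of 17 alternatives, with adjusted p from 0.0455 to 0.9996, and Spi1 in 17 of 17. Mpo reversed with a pseudocount of 0.1 (-0.029), after quantile normalization (-0.65), without wild-type replicate 2 (-0.16), without RankCre-ki replicate 2 (-0.63) and within series 2 (-0.60). Prtn3 reversed after median-ratio scaling (-0.065) and within series 1 (-0.12). Lyz2 reversed without RankCre-ki replicate 2 (0.32) and within series 2 (0.26). Cebpb reversed after quantile normalization (-0.37), without wild-type replicate 1 (-0.01), without RankCre-ki replicate 2 (-0.26) and within series 2 (-0.92). The cause was not tested. Over the fits that left out 1 library, the fold change ran from -0.63 to 0.95 for Mpo, -1.26 to 0.32 for Lyz2 and -0.26 to 1.57 for Cebpb. For Prtn3 it stayed above 0, from 0.18 without wild-type replicate 3 to 0.81 without wild-type replicate 1. Median-ratio scaling moved the median of all genes to 0.16, and quantile normalization to -0.09. A fit without 1 RankCre-ki library assumes that the other varies like the wild-type libraries. TPM keep no depth, so values near 1 TPM cannot be given a detection limit.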
